A study of Mus musculus with 8 samples.

Results

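Thyroid hormone transport, deiodination and response were followed through 9 genes of the mouse hypothalamus: Ttr, Slco1c1, Dio2, Crym, Thra, Thrb, Klf9, Hr and Trhde. They were chosen by name, and every probe that the platform table assigns to them was used. They are 9 of the 16593 genes named on the array and have 10 of its 25697 probes, 2 for Hr and 1 for each other gene. RNA came from the hypothalamus of male mice aged 13 weeks, 4 labelled Bgn_KO, in which the gene for the matrix proteoglycan biglycan is disrupted, and 4 labelled WT. Both groups were of C57BL/6 background per the labels and ate the same rodent chow freely. The labels do not say which part of Bgn is missing, or whether the groups were littermates. The design counts 4 mice in each group, but nothing ties each array to 1 mouse, so p-values measure the spread between the 8 labelled samples.

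Thyroid hormone reaches the brain mostly as thyroxine (T4), a prohormone. T4 is carried by proteins such as transthyretin, crosses the blood-brain barrier through membrane transporters and is turned into the active hormone T3 by the deiodinase Dio2, which in the hypothalamus sits in tanycytes and astrocytes. T3 binds the nuclear receptors encoded by Thra and Thrb, which switch target genes on or off, and in the hypothalamus it lowers the production of thyrotropin-releasing hormone (TRH), the peptide that drives the pituitary-thyroid axis.

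The values given are normalized log2 signals after background removal, and differences are Bgn_KO minus WT on that scale. A probe was taken as above background on an array where its detection p-value was under 0.05, and it was tested if that held on at least 4 of the 8 arrays. The arrays had 13820 to 14502 such probes each, and the number of arrays limits the precision. Of the 13 tested markers of hypothalamic neurons and peptides, Pmch, Oxt, Sst, Hcrt and Avp were at 12.55 or above on every array, while Sim1 and Otp were above background on none. Some arrays stood apart. Bgn itself read 8.94, 9.01, 8.99 and 8.79 on Bgn_KO replicates 1 to 4 and 8.86, 10.44, 10.14 and 9.53 on WT replicates 1 to 4, and by this gene the array labelled WT replicate 1 goes against its label, inside the Bgn_KO range. Whether the Bgn probe lies in the disrupted part of the gene is not known here. Over the 8 arrays the Bgn difference was -0.81 (SE 0.29, limma adjusted p = 0.390), and Bgn was above background on all of them. Markers of meningeal fibroblasts averaged 7.11, 8.89, 8.37 and 7.52 on WT replicates 1 to 4, in the same order of size as Bgn. On Bgn_KO replicates 1 to 4 they averaged 7.98, 7.21, 6.87 and 8.48, not in the order of Bgn. Their part in the Bgn values was not tested. The cortical marker list averaged 8.83 on Bgn_KO replicate 4 and 6.28 to 7.19 on the other 7 arrays. Of this list Bcl11b, Slc17a7, Tbr1 and Rasgrf2 were tested, and all but Rasgrf2 were highest on Bgn_KO replicate 4. The skeletal muscle list averaged 12.16 on WT replicate 4 and 6.36 to 6.90 on the other 7. The pituitary and pars tuberalis list, of which Cga and Tshb were tested, averaged 8.53 on Bgn_KO replicate 1 and 8.32 on WT replicate 2, against 4.54 to 5.70 on the other 6. Directions below rest on the labels as deposited.

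None of the thyroid hormone genes differed between Bgn_KO and WT past the test over all probes. The largest differences were lower values in Bgn_KO of Ttr and of Hr, and for both genes the groups overlapped. Of the 10 probes, 8 were tested and 0 passed an adjusted p of 0.05 (limma with Benjamini-Hochberg adjustment over 14190 tested probes), while over all tested probes 72 did, 0.507%. At an unadjusted p under 0.05 the count was 1 of 8, beside 10.2% of all tested probes. Groups without overlap were seen for 0 of 8, beside 6.15% of all tested probes. Of the 8, 5 were lower in Bgn_KO (47.2% of all tested probes were), with both Hr probes among them. Without the array labelled WT replicate 1, 0 of 8 passed (0.366% of all tested probes) and 0 had groups without overlap (11.8%). Without Bgn_KO replicate 4 the counts were 0 (0.536%) and 3 (11.1%), the 3 being Crym and both Hr probes. Without WT replicate 2 they were 0 (0.444%) and 2 (11.5%), and without both replicates 4 they were 0 (0.296%) and 4 (14%).

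**Figure D1:**
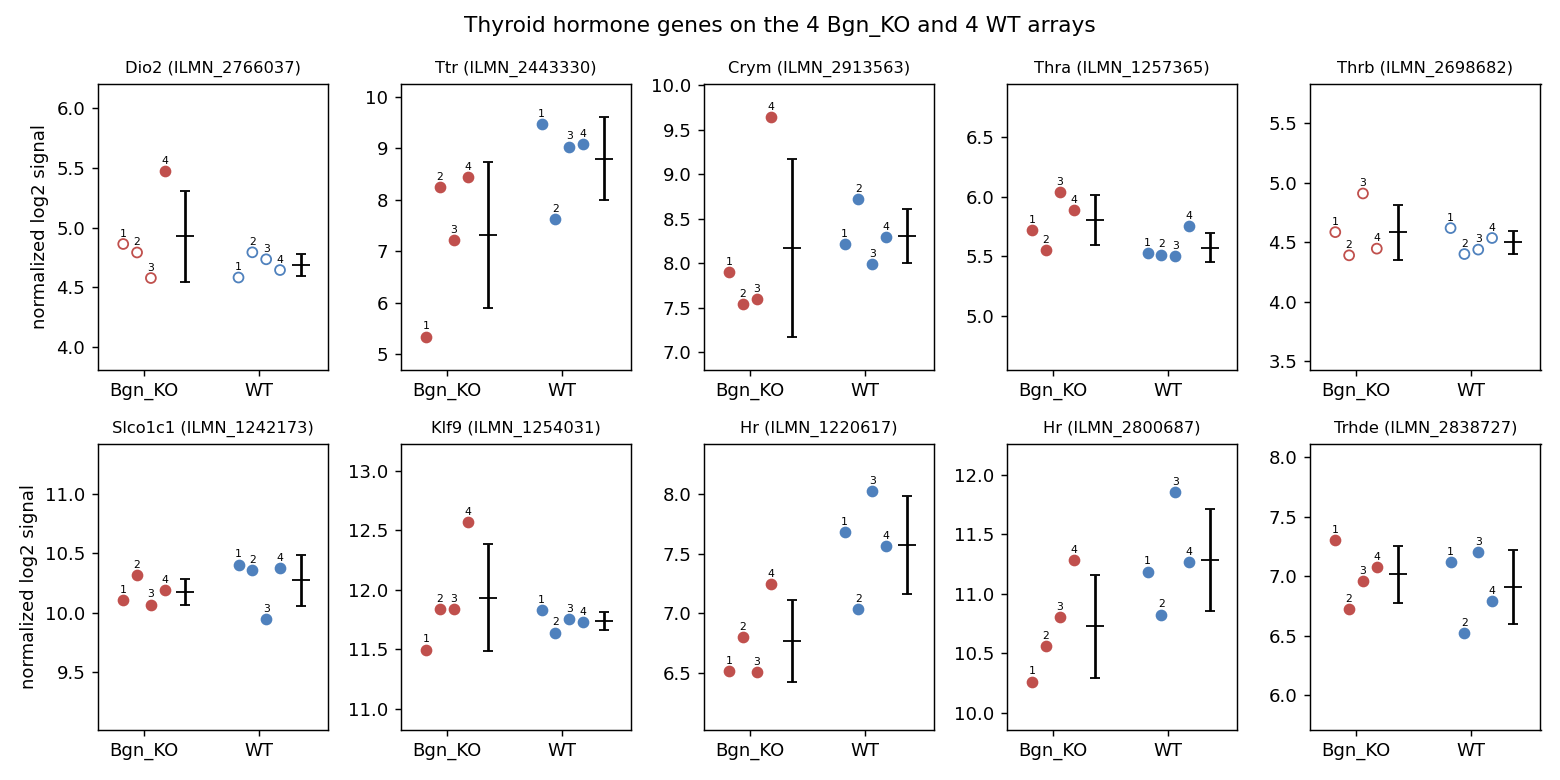
Normalized log2 signal of each of the 10 probes on the 4 Bgn_KO (red) and 4 WT (blue) arrays, each panel with its own axis. Numbers are replicates, open circles mark arrays where the probe was not above background, and the black bars give the mean and SD of each group. Dio2 was above background on 1 array and Thrb on 0, Ttr spread from 5.34 to 9.47, and Crym and Klf9 had their highest value on Bgn_KO replicate 4.

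Ttr encodes transthyretin, the carrier that binds T4 in blood and cerebrospinal fluid and is made in the brain mainly by the choroid plexus. Its signal was 5.34, 8.25, 7.22 and 8.45 on Bgn_KO replicates 1 to 4 and 9.47, 7.62, 9.03 and 9.08 on WT replicates 1 to 4. The 3 highest arrays were all WT and the 2 lowest were both Bgn_KO, but WT replicate 2 lay below Bgn_KO replicates 2 and 4. Before any scaling, the deposited signal of this probe ran from 186.5 on Bgn_KO replicate 1 to 1030 on the array labelled WT replicate 1. The lowest of these was only just above background, with a detection p-value of 0.0363. The means were 7.31 ± 1.42 and 8.80 ± 0.81 (SD, n = 4 each), a log2 difference of -1.49 (SE 0.67, 95% interval -2.99 to 0.01). The adjusted p from limma was 0.495, and a two-sided exact permutation test, which with groups of 4 reaches 0.0286 at best, gave p = 0.114. The size depends on single arrays and on the background removal: the difference was -0.83 without Bgn_KO replicate 1 (limma adjusted p = 0.634) and -0.83 without background correction (limma adjusted p = 0.399). Without WT replicate 2 it was -1.88 (limma adjusted p = 0.355), and the groups no longer overlapped, as for 11.5% of all tested probes without that array. Over the 8 arrays the SD of Ttr was 1.34, larger than that of 99.7% of all tested probes.

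The arrays with the lowest Ttr of their groups, Bgn_KO replicate 1 and WT replicate 2, were the ones with the highest pituitary and pars tuberalis markers (8.53 and 8.32). The tested choroid plexus markers other than Ttr spread far less. Otx2, the widest of them, ran from 5.81 to 7.05, and averaging narrows the spread further. The mean of the tested markers lay at 7.39 to 7.83 in Bgn_KO and 7.59 to 7.69 in WT. On Bgn_KO replicate 1, where Ttr was lowest, it was 7.57. Markers that missed the filter are not in this mean. Of the 10 choroid plexus markers with a probe, 5 were tested and 0 passed. Among them was Clic6, a chloride channel protein, at 10.71 on Bgn_KO replicate 1 and 10.13 to 11.16 on the other arrays. Of the others, Cldn2, a tight junction protein, was above background on 1 array, the probes of the folate receptor Folr1, of F5 and of the water channel Aqp1 on at most 2, and the potassium channel subunit Kcne2 on 3. In RNA from whole tissue, fewer cells of a type and less RNA per cell cannot be told apart, and the part of tissue composition in the Ttr difference was not tested.

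Slco1c1 encodes the organic anion transporter that brings T4 across the endothelium of brain vessels. Its signal was 10.11, 10.32, 10.07 and 10.19 on Bgn_KO replicates 1 to 4 and 10.41, 10.36, 9.95 and 10.38 on WT replicates 1 to 4. The lowest array was WT replicate 3, and the other 3 WT arrays lay above all Bgn_KO arrays. The log2 difference was -0.10 (SE 0.12, 95% interval -0.37 to 0.17, limma adjusted p = 0.833), with all arrays inside a range of 0.46. Without WT replicate 3 it was -0.21 (limma adjusted p = 0.615), and the groups no longer overlapped, as for 8.84% of all tested probes without that array. Markers of brain endothelium, in which Slco1c1 is made, averaged 9.45 to 9.78 in Bgn_KO and 9.53 to 9.79 in WT, and 0 of the 7 tested passed.

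Dio2, the deiodinase that makes T3 from T4, was at the limit of what the array could measure. Its deposited signal was 170.4, 154.6, 147.1 and 204.0 on Bgn_KO replicates 1 to 4 and 174.8, 166.8, 177.4 and 167.7 on WT replicates 1 to 4. It was above background on Bgn_KO replicate 4 alone, with a detection p-value of 0.0313, and these values were 0.201 to 0.630 on the other 7 arrays. The array with the Dio2 signal was the one with the highest cortical markers. No difference between the groups can be drawn from this probe at its signal. The other deiodinases Dio1, an activating enzyme of liver and thyroid, and Dio3, which inactivates T3 and T4, each had a probe and did not reach the detection limit for testing.

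Crym encodes mu-crystallin, a cytosolic protein that binds T3 and is made in cortex and striatum as well as in hypothalamus. Its signal was 7.91, 7.54, 7.59 and 9.64 on Bgn_KO replicates 1 to 4 and 8.21, 8.72, 7.99 and 8.30 on WT replicates 1 to 4. Bgn_KO replicate 4 was the highest of all 8 arrays, while the other 3 Bgn_KO arrays were the lowest. The log2 difference was -0.13 (SE 0.43, 95% interval -1.10 to 0.83, limma adjusted p = 0.947). Without Bgn_KO replicate 4 it was -0.63 (SE 0.18, limma adjusted p = 0.247, exact permutation p = 0.0571) and the groups no longer overlapped, as was the case for 11.1% of all tested probes without that array. Without Bgn_KO replicate 2, Bgn_KO replicate 3 or WT replicate 2 the sign turned, with differences of 0.08, 0.06 and 0.0046. On Bgn_KO replicate 4 the vesicular glutamate transporter Slc17a7, a marker of cortical excitatory neurons, was 11.55 against 4.97 to 8.88 on the other arrays, and Tbr1, a cortical transcription factor, was 8.28 against 5.44 to 6.60. Their part in the Crym value was not tested.

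The receptors gave little signal. Thra, which encodes the thyroid hormone receptor alpha that predominates in brain, was above background on all 8 arrays but only by a small margin, with deposited signals of 175.7 to 221.1 in Bgn_KO and 188.9 to 216.9 in WT and detection p-values of 0.0025 to 0.0326. Its normalized signal was 5.72, 5.55, 6.04 and 5.89 on Bgn_KO replicates 1 to 4 and 5.52, 5.51, 5.50 and 5.75 on WT replicates 1 to 4. The 3 WT arrays other than replicate 4 lay below every Bgn_KO array. The log2 difference was 0.23 (SE 0.12, 95% interval -0.04 to 0.50, limma adjusted p = 0.572, exact permutation p = 0.114). It was 0.06 in the authors' processed values and without background correction. Without WT replicate 4 it was 0.29 (limma adjusted p = 0.626) and the groups no longer overlapped, as for 8.13% of all tested probes without that array. Thrb, which encodes the receptor that mediates the feedback of T3 on TRH, was above background on 0 arrays, with a deposited signal of 133.0 to 177.2 and detection p-values of 0.167 to 0.990. The array cannot say whether Thrb differed.

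Klf9 and Hr are direct targets of the hormone-bound receptors in rodent brain. Klf9 encodes a Krüppel-like transcription factor that neurons and glia also raise in response to glucocorticoids. Its signal was 11.50, 11.84, 11.84 and 12.57 on Bgn_KO replicates 1 to 4 and 11.83, 11.64, 11.75 and 11.73 on WT replicates 1 to 4. Bgn_KO replicate 4 stood above the other 7 arrays and Bgn_KO replicate 1 below them. The log2 difference was 0.20 (SE 0.20, 95% interval -0.25 to 0.64, limma adjusted p = 0.789). Without Bgn_KO replicate 1 it was 0.34 (limma adjusted p = 0.624), and without Bgn_KO replicate 4 it was -0.01 (SE 0.11, limma adjusted p = 0.976). In the first of these the groups no longer overlapped (exact permutation p = 0.0286, the smallest that 3 against 4 arrays allow), as for 9.34% of all tested probes without Bgn_KO replicate 1.

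Hr encodes a nuclear corepressor, named for the hairless mouse, whose transcript rises with T3 in developing and adult rodent brain. It was read by 2 probes, and both were lower in Bgn_KO without passing the test. Probe ILMN_1220617 was 6.51, 6.80, 6.51 and 7.25 on Bgn_KO replicates 1 to 4 and 7.68, 7.04, 8.03 and 7.56 on WT replicates 1 to 4. The groups met only where Bgn_KO replicate 4 exceeded WT replicate 2. The means were 6.77 ± 0.35 and 7.58 ± 0.41 (SD, n = 4 each), a log2 difference of -0.81 (SE 0.23, 95% interval -1.33 to -0.29). Before adjustment limma gave p = 0.00606, after adjustment over all tested probes p = 0.239, and the exact permutation p was 0.0571. Probe ILMN_2800687 was 10.26, 10.56, 10.80 and 11.28 on Bgn_KO replicates 1 to 4 and 11.19, 10.82, 11.85 and 11.26 on WT replicates 1 to 4. Here Bgn_KO replicate 4 lay above all WT arrays but replicate 3, and the other 3 Bgn_KO arrays lay below all WT arrays. The log2 difference was -0.56 (SE 0.26, 95% interval -1.13 to 0.02, limma adjusted p = 0.509, exact permutation p = 0.143).

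The direction of Hr held without any 1 array: between -0.99 and -0.66 for ILMN_1220617 and between -0.74 and -0.37 for ILMN_2800687, with limma adjusted p of 0.125 or more. Without the array labelled WT replicate 1 the differences were -0.77 and -0.59. Without Bgn_KO replicate 4 they were -0.97 (limma adjusted p = 0.149) and -0.74 (limma adjusted p = 0.304), and the groups of both probes no longer overlapped (exact permutation p = 0.0571 for each), as for 11.1% of all tested probes without that array. The difference for ILMN_1220617 was smaller without background correction, at -0.38, and in the authors' processed values, at -0.39.

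The mean signals of the oligodendrocyte and astrocyte marker lists were lower in Bgn_KO, as those of Ttr and Hr were, and did not overlap between the groups. Each gene of a list was read by its brightest tested probe. The oligodendrocyte list averaged 11.65 to 11.88 in Bgn_KO and 11.95 to 12.36 in WT, with 9 of its 9 tested genes lower and 0 past the test. Other tested probes of its gene Mbp differed by 0.15 (limma adjusted p = 0.682) and -0.29 (limma adjusted p = 0.657). The astrocyte list averaged 10.76 to 10.82 in Bgn_KO and 10.84 to 10.92 in WT, with 7 of 10 lower and 0 past the test. Its dimmest gene, S100b, had its largest difference (-0.50, SE 0.22, limma adjusted p = 0.489), while Gfap, Aqp4 and Slc1a2 were higher in Bgn_KO. The gap between the astrocyte means of the groups was narrow, and whether it holds without S100b was not tested. The other lists overlapped: tanycyte and ependyma at 8.25 to 8.69 against 8.39 to 8.77, neuron at 11.77 to 12.14 against 11.83 to 11.90, and meningeal fibroblast at 6.87 to 8.48 against 7.11 to 8.89. Over all tested probes 47.2% were lower in Bgn_KO and 6.15% had groups without overlap. Most tested genes were also lower in the tanycyte and ependyma (5 of 5), meningeal fibroblast (8 of 9) and hypothalamus (11 of 13) lists. The same held for the brain endothelium (5 of 7), skeletal muscle (3 of 3) and choroid plexus (3 of 5) lists. All 3 skeletal muscle genes were highest on WT replicate 4, where their list averaged 12.16 against 6.36 to 6.90 on the other arrays. The skeletal muscle count without that array was not taken. The counts were 2 of 7 in the neuron list, 1 of 4 in the cortical list and 1 of 2 in the pituitary list. The part of these lists in the Ttr and Hr values was not tested.

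Trhde encodes the ectoenzyme that breaks down TRH outside the cell and that T3 raises in the pituitary. Its signal was 7.30, 6.73, 6.96 and 7.08 on Bgn_KO replicates 1 to 4 and 7.12, 6.52, 7.20 and 6.79 on WT replicates 1 to 4, with groups that overlapped from 6.73 to 7.20. The log2 difference was 0.11 (SE 0.17, 95% interval -0.28 to 0.50, limma adjusted p = 0.880), and it was -0.02 without WT replicate 2. Trh itself was at 12.58 to 13.02 in Bgn_KO and 12.68 to 12.98 in WT, a log2 difference of 0.01 (SE 0.12, limma adjusted p = 0.983).

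**Figure D2:**
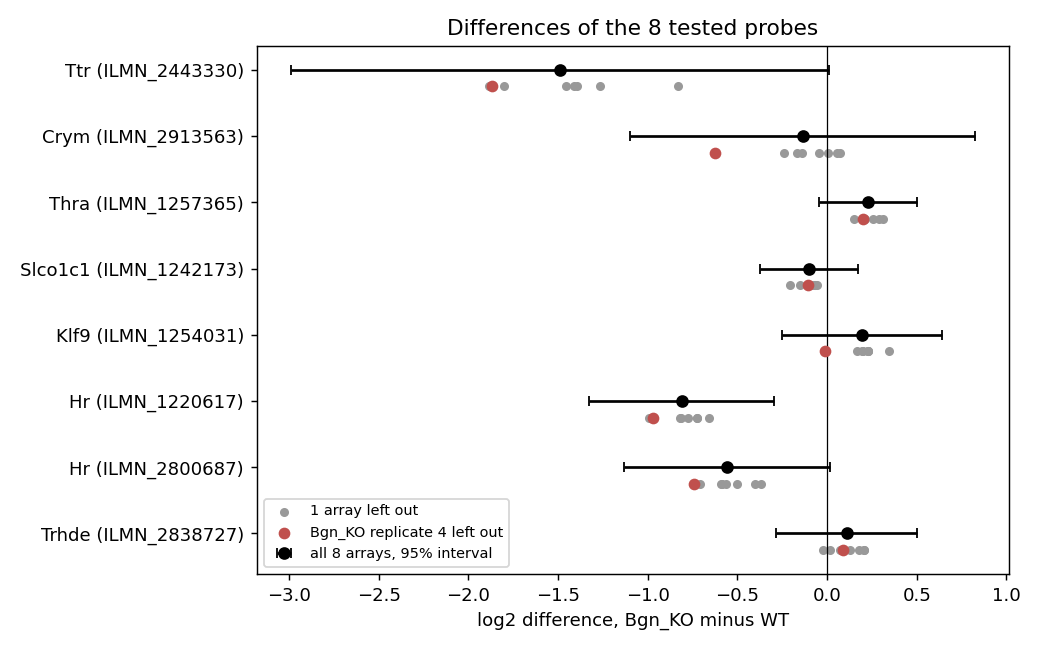
Log2 difference, Bgn_KO minus WT, of the 8 tested probes with its 95% interval from limma (black), and the differences with 1 array left out (grey, in red without Bgn_KO replicate 4). The interval of Hr probe ILMN_1220617, -1.33 to -0.29, does not reach 0 before adjustment over all probes, and leaving out Bgn_KO replicate 4 moved Crym from -0.13 to -0.63 and Klf9 from 0.20 to -0.01.

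All 28 pairs of the 8 tested probes were compared over the 8 arrays, and 0 passed 0.05 after Benjamini-Hochberg adjustment over the 28. The closest pair was that of the 2 Hr probes (Pearson r = 0.905, exact permutation p = 0.00223, adjusted p = 0.0625; Spearman rho = 0.833, exact permutation p = 0.0154, adjusted p = 0.215; r = 0.925 without the 2 arrays farthest from the median). Next came Ttr with Hr probe ILMN_1220617 (r = 0.828, exact permutation p = 0.00675, adjusted p = 0.0944; rho = 0.881, exact permutation p = 0.00724, adjusted p = 0.203; r = 0.783 without the 2 farthest arrays). After removing each group's mean the r of these pairs was 0.871 and 0.722, and other pairs exceeded the second. It was then 0.777 for Crym with Klf9, 0.745 for Ttr with Klf9 and 0.727 for Klf9 with Hr probe ILMN_2800687. Crym and Klf9 had an r of 0.693 (exact permutation p = 0.0991, adjusted p = 0.643) with a rho of -0.060 (exact permutation p = 0.899, adjusted p = 0.977). On Bgn_KO replicate 4 Crym and Klf9 both lay above their means of 8 arrays (1.40 and 0.73). On WT replicate 2 Crym lay above its mean (0.49) and Klf9 below (-0.20). Without these 2 arrays r was -0.213. The arrays left out were those farthest from the median of 1 probe: ILMN_1220617 for the Hr pair, Ttr for the second pair and Crym here.

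**Figure D3:**
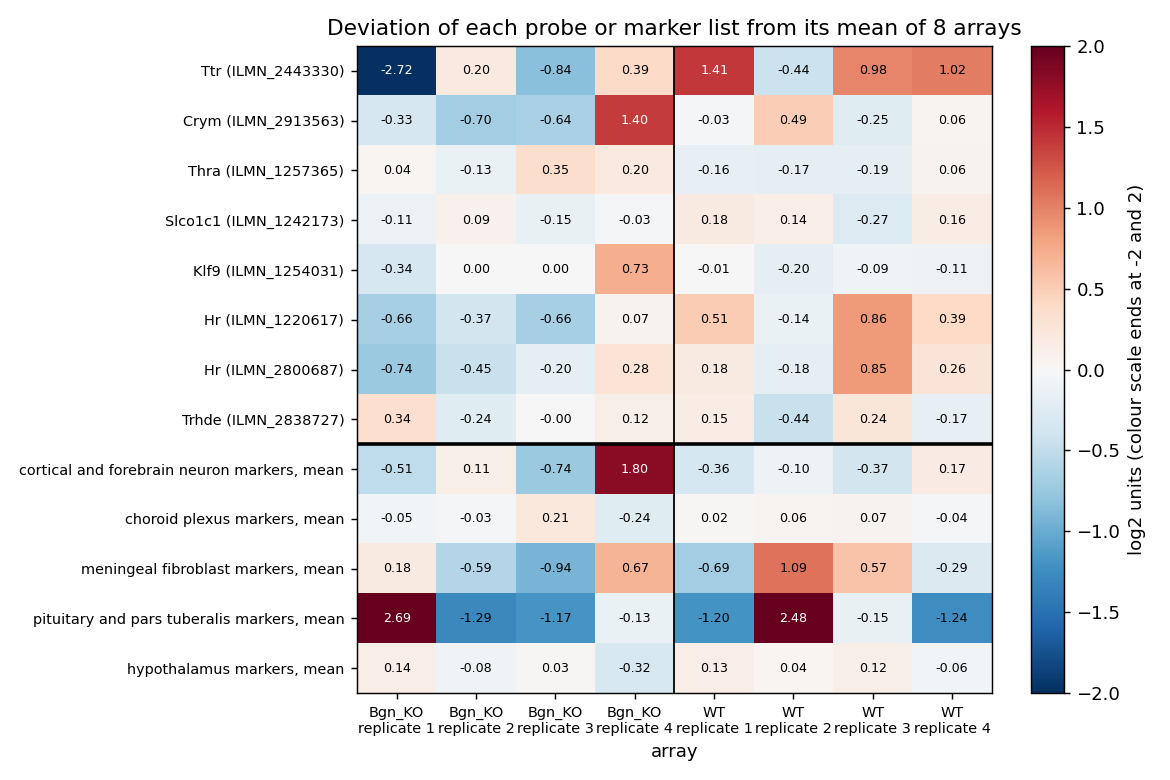
Deviation, in log2 units, of each tested probe (upper rows) and of the mean of 5 marker lists (lower rows) from its own mean over the 8 arrays, in columns by array with Bgn_KO on the left. Ttr was lowest on Bgn_KO replicate 1 (-2.72 from its mean), and Crym (1.40) and Klf9 (0.73) were highest on Bgn_KO replicate 4, where the cortical list was 1.80 above its mean.

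Among 9781 other genes, those whose brightest probe followed Ttr most closely over the 8 arrays were Yeats4, a chromatin reader subunit (r = 0.965), Cntnap5b, a neuronal adhesion protein (0.963), Actr3, a subunit of the actin-branching complex (0.947), and Cep70, a centrosome protein (0.938). Yeats4 and Actr3 spanned only 0.28 and 0.32 log2 units where Ttr spanned 4.13. For Crym, the gene with the next widest range, they were the exchange factor Arhgef3 (0.967), the transcription factor Maf (0.965), the ubiquitin ligase Pdzrn3 (0.964) and 1110008P14Rik (0.964). Of these, Maf (1.57) and Pdzrn3 (2.12) had ranges near that of Crym. With 8 arrays, 22 genes reached an r above 0.9 with Ttr and 23 with Crym, so these names describe these arrays and no more.

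Other genes of the pathway were read from 5 lists of 65 genes, of which 56 had a probe and 42 were tested. By the brightest probe of each gene, 0 passed an adjusted p of 0.05 (limma), beside 0.507% of all tested probes. An unadjusted p under 0.05 was reached by 6 (14.3%, beside 10.2% of all tested probes), and 4 had groups without overlap (9.52%, beside 6.15%). In Bgn_KO 25 were higher and 17 lower (40.5% lower, beside 47.2%), and the median log2 difference was 0.07, against 0.01 over all tested probes.

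Transporters for uptake and release were lower for 5 of 6 (median log2 difference -0.15, 0 past the test). The exception was Slc16a10, the aromatic amino acid and thyroid hormone transporter MCT10, at 5.63 ± 0.18 against 5.13 ± 0.22 (SD, n = 4 each). Its log2 difference was 0.50 (SE 0.13, limma adjusted p = 0.213, exact permutation p = 0.0286), with no overlap. Its signal was near background, at 5.45 to 5.87 in Bgn_KO and 4.87 to 5.40 in WT. On Bgn_KO replicate 1, Dio2 at 4.86 was not above background and Ttr at 5.34 was only just above it. The lack of overlap at this level therefore says little. Slc3a2, the heavy chain shared by amino acid transporters that also carry T3, differed by -0.58 (SE 0.17, limma adjusted p = 0.273), and Slc10a4, a vesicular protein of cholinergic and monoamine neurons in the bile acid transporter family, by -0.74 (SE 0.44, limma adjusted p = 0.602).

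Genes around deiodinase synthesis and turnover were higher for 3 of 6 and lower for 3 (median 0.02, 0 past the test). Usp33, a deubiquitinase that protects Dio2 from degradation, differed by -0.36 (SE 0.17, limma adjusted p = 0.521). Its arrays did not overlap: they were 11.77 to 11.93 in Bgn_KO and 11.95 to 12.77 in WT, with the highest value on the array labelled WT replicate 1. Eefsec, the selenocysteine elongation factor, differed by -0.22 and Secisbp2, which reads the selenocysteine signal in deiodinase transcripts, by 0.16.

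Receptor partners and cofactors were higher for 9 of 10 (median 0.11, 0 past the test). The exception was Rxra, the retinoid X receptor alpha that pairs with thyroid hormone receptors, at 5.52 ± 0.06 against 5.89 ± 0.15 (SD, n = 4 each). Its log2 difference was -0.38 (SE 0.10, limma adjusted p = 0.192, exact permutation p = 0.0286), also without overlap. Its signal was near background, as that of Thra was, at 5.45 to 5.58 in Bgn_KO and 5.75 to 6.11 in WT. The coactivator Ppargc1a differed by 0.38 (SE 0.15, limma adjusted p = 0.429) and the corepressor histone deacetylase Hdac3 by 0.18 (SE 0.09, limma adjusted p = 0.551).

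In the TRH and TSH axis 4 of 6 were higher (median 0.02, 0 past the test). Pam, the enzyme that amidates TRH, differed by 0.25 (SE 0.35) and the TRH receptor Trhr by -0.06 (SE 0.10). Tshb, the TSH beta chain of pituitary and pars tuberalis, was 8.46 on Bgn_KO replicate 1, 7.61 on WT replicate 2 and 4.52 to 5.62 on the other 6 arrays (log2 difference 0.26, SE 0.94, limma adjusted p = 0.952).

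Of 14 further genes known to respond to T3 in rodent brain, 8 were higher and 6 lower (median 0.07, 0 past the test). Ntrk2, which encodes the BDNF receptor TrkB, was 12.83 ± 0.10 against 12.55 ± 0.09 (SD, n = 4 each) by its brightest probe, without overlap, a log2 difference of 0.28 (SE 0.09, limma adjusted p = 0.297). Its other tested probes passed in opposite directions, with log2 differences of -2.86 (limma adjusted p = 0.0028) and 1.12 (limma adjusted p = 0.0258). Aldh1a1, a retinoic acid synthesizing enzyme, differed by -0.63 (SE 0.20, limma adjusted p = 0.311), and the laminin receptor chain Itga7 by -0.21 (SE 0.10, limma adjusted p = 0.536).

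**Figure D4:**
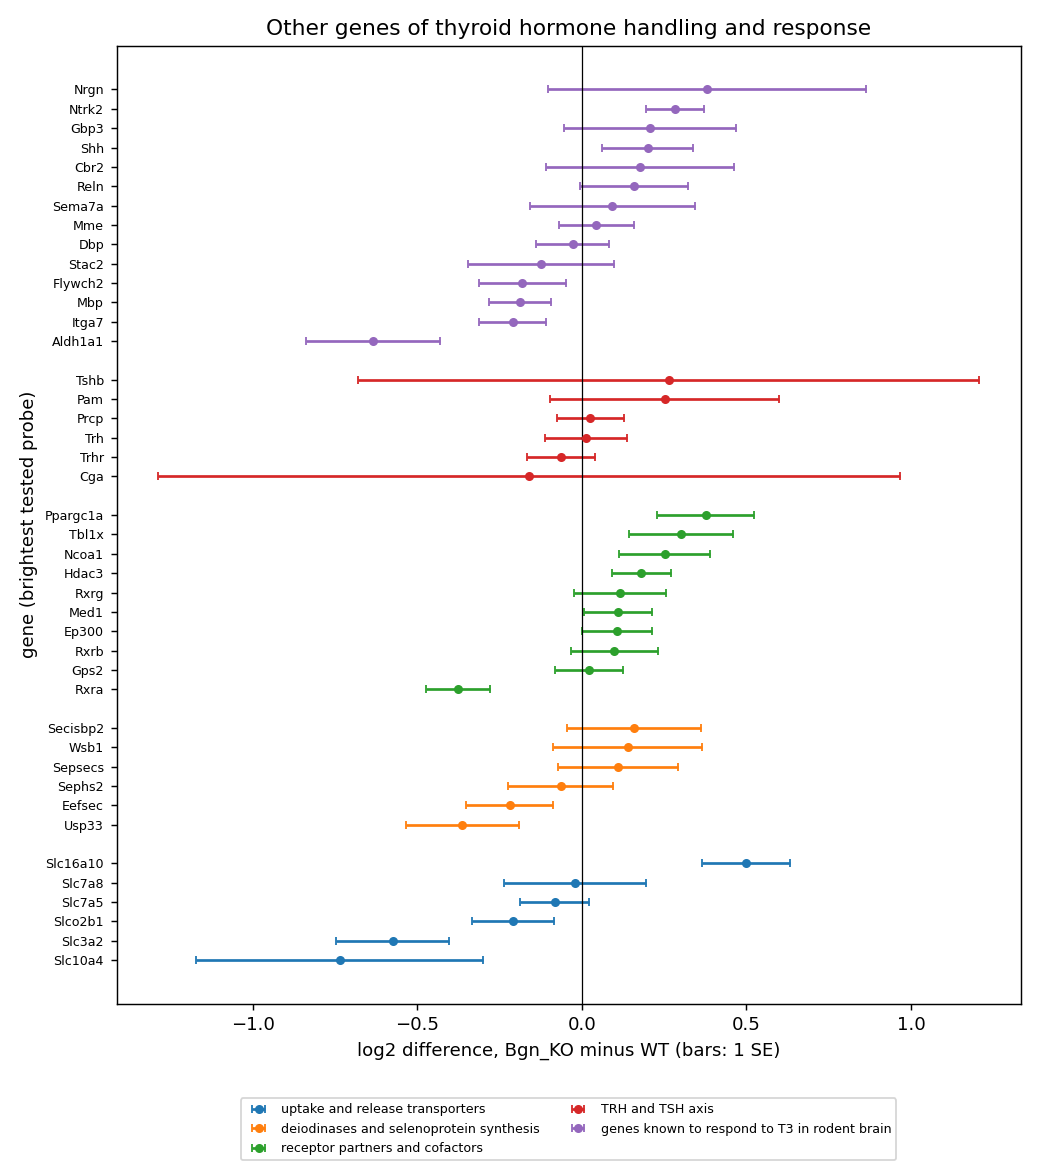
Log2 difference, Bgn_KO minus WT, of 42 other genes of thyroid hormone handling and response, each by its brightest tested probe, with bars of 1 SE and colours by list. Cofactors lie mostly to the right of 0 apart from Rxra (-0.38) and transporters mostly to the left apart from Slc16a10 (0.50), and 0 of the 42 passed the test.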

How the data were processed

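Signal in the first deposited table is intensity on a linear scale that the file headers call not normalized, and the authors deposited a detection p-value for every probe on every array beside it. A second deposited table holds the authors' processed intensities, also linear. For it the submitters' processing notes name lumi 2.10.0 and R 2.15.0, while the sources used here give no normalization method. Sample letters in the labels matched columns to arrays.

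Background was modelled from the detection p-values (limma 3.58.1, R 4.3.3), subtracted by normexp with an offset of 16, and followed by quantile normalization and log2. A probe was tested if its detection p was under 0.05 on at least 4 of 8 arrays (14190 probes), with limma's moderated linear model and Benjamini-Hochberg adjustment over all of them. The linear model and its adjustment were tested on simulated data drawn at the normalized level. The background, normalization and filter steps were not. Of all probes, 23978 carry 1 gene symbol, 0 several and 1719 are not listed. Named genes are all probes of the 9 genes, the 3 genes with the smallest p of each wider list, the 4 genes most like Ttr and Crym, and the brightest genes that describe a marker list. Trh beside Trhde, the other Ntrk2 probes, Dio1 and Dio3 were named after their values were seen. So were the dimmer markers (Tbr1, Rasgrf2, Tshb, Sim1, Otp and the choroid plexus markers other than Clic6). The astrocyte markers S100b, Gfap, Aqp4 and Slc1a2 and the other Mbp probes were also named after their values were seen. The members and lists were chosen with earlier results of these data known. Alternatives are in the closing section.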

Additional observations from a re-analysis of the deposited data

Results flagged for a closer look

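In groups of 4 arrays, 1 array lay far from the other 3 for 5 of the 24 probes checked (48 groups of 4, of which chance flags about 1 in 20). The Thra probe on WT replicate 4 was 5.75, against 5.50 to 5.52 on the other WT arrays, and without that array its groups did not overlap, as for 8.13% of all tested probes. The Slco1c1 probe on WT replicate 3 was 9.95, against 10.36 to 10.41 on the other WT arrays. Without it the log2 difference was -0.21 in place of -0.10, and limma's adjusted p was 0.615. The Eefsec probe on Bgn_KO replicate 3 was 5.76, against 5.55 to 5.58. The Pam probe on the array labelled WT replicate 1, the one whose Bgn signal lay inside the Bgn_KO range, was 5.20, against 6.72 to 6.88. The Trhr probe on Bgn_KO replicate 4 was 8.44, against 8.63 to 8.67.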

How the results depend on the processing

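Under the 17 alternatives tried, 0 tested probes of the 9 genes and 0 genes of the wider lists, by their brightest probe, passed 0.05 in limma, and the lowest adjusted p was 0.0905, for Hr probe ILMN_1220617 with array weights. Ttr and both Hr probes were lower in Bgn_KO under every alternative in which they were tested. With the stricter filter, a detection p under 0.01 on all 8 arrays, Ttr and Thra were not tested. With 1 array left out, Crym ran from -0.63 to 0.0753, Klf9 from -0.0127 to 0.34 and Trhde from -0.0197 to 0.21. Klf9 was -0.0163 without both replicates 4. The count of all probes past 0.05, 72 in the report, was 47 with the stricter filter, 116 with array weights, 26 with the replicate block, 42 without both replicates 4 and 43 to 76 with 1 array left out. The cause was not tested. The labels do not say that replicate numbers pair animals, so the numbers were not taken as pairs. Same-numbered arrays had correlations of -0.01, -0.19, 0.01 and 0.10 in their deviations from the group means. With the replicate block Ttr had a difference of -1.49 (limma adjusted p = 0.565) and it changed no call of these genes. Signal over background limits Dio2, Thrb and Thra, and genes of the wider lists such as Slc16a10 and Rxra.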
